A study of Mus musculus with 4 samples.

Results

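The parathyroid hormone-related protein (PTHrP) axis and the hormone receptors of the embryonic mammary gland were followed through 9 genes, which were taken by symbol from the gene lists of single-cell libraries made at 4 stages. They are Pthlh, which encodes PTHrP, and its receptor gene Pth1r, the steroid receptor genes Esr1, Pgr and Nr3c1, the vitamin D receptor gene Vdr, the prolactin and growth hormone receptor genes Prlr and Ghr, and the transcriptional co-regulator gene Cited1. The 9 genes are 9 of 30406 identifiers that the gene lists of all 4 stages share.

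PTHrP is a secreted peptide made by the epithelium of the mammary bud. It acts on the neighbouring mesenchyme through PTH1R, a G protein-coupled receptor, and the signal is needed for the mesenchyme to take on a mammary identity and for the bud to grow out. Estrogen, progesterone and glucocorticoid receptors are nuclear receptors that bind DNA once they hold their hormone, and in the adult gland estrogen and progesterone receptors mark a hormone-sensing class of luminal cells. The prolactin and growth hormone receptors are cytokine receptors at the cell surface that signal through JAK2 and STAT5, and CITED1 is a nuclear protein that partners with the estrogen receptor.

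The cells came from mammary glands of female wild-type C57B6 mice (the B6/N substrain, per the study's methods) at the embryonic (E) stages E13.5 to E15.5, 1 day apart, and on the day of birth (P0), with 1 10x Chromium library per stage. Per the study's methods, buds were dissected with their surrounding mesenchyme, tissue of several animals was pooled, and each stage was a separate session. Cells positive for CD45, CD31 or Ter119 were sorted away, EpCAM-positive and EpCAM-negative cells were both collected, and red cells were lysed at P0. Animals, sessions, libraries and stages therefore cannot be told apart, no value has a replicate, and no p-value is given. Tissue shares among the cells reflect the sort.

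Of 981, 807, 2642 and 1466 deposited barcodes in stage order, cells with at least 5000 unique molecular identifiers (UMIs, each 1 counted RNA molecule) and at most 6% mitochondrial UMIs were kept, which left 235, 76, 816 and 503. A kept cell was called epithelium where its summed Epcam, Krt8, Krt18, Krt5 and Krt14 UMIs exceeded its summed Col1a1, Col1a2 and Col3a1 UMIs, and mesenchyme in the opposite case. This gave 98, 45, 532 and 230 epithelial cells and 135, 31, 283 and 273 mesenchymal cells. Skin cells, which the study removed before it compared mammary epithelial cells, were kept in epithelium here. The median UMIs per cell were 18967.5, 26725, 24695.5 and 9973 in epithelium and 16438, 24268, 24376 and 8743 in mesenchyme, so that P0 cells were the shallowest. The 2 lists of 9 marker genes that the sorting of cells into tissues did not use were called higher in their own tissue for 9 of 9 genes at each stage. Summed epithelial markers in mesenchyme stood at 1.20%, 0.374%, 3.23% and 3.50% of their epithelial level, and mesenchymal markers in epithelium at 5.67%, 4.99%, 4.46% and 0.526% of their mesenchymal level. No more than 1 barcode was shared by any 2 libraries. In P0 mesenchyme, 4 cells held 99.7% of the red cell UMIs.

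Levels are UMIs summed over the cells of a tissue and scaled to counts per 1000000 (CPM), with exact 95% Poisson intervals. A gene was called different between 2 groups of cells where its ratio was at least 2 in either direction and the exact interval of the ratio lay on one side of 1, and it was tested where the groups held at least 10 UMIs together. These intervals cover counting error only. Beside any level, fewer cells that carry a gene and less RNA of it per cell cannot be told apart.

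By the annotation of the build the files use, mouse GRCm38, Pthlh (ENSMUSG00000048776) lies on chr6:147252101-147264183 on the minus strand and Pth1r (ENSMUSG00000032492) on chr9:110722085-110747145 on the minus strand. Esr1 (ENSMUSG00000019768) spans chr10:4611593-5005614 and Pgr (ENSMUSG00000031870) chr9:8899833-8968611, both on the plus strand. Prlr (ENSMUSG00000005268), Ghr (ENSMUSG00000055737) and Vdr (ENSMUSG00000022479) share a chromosome, at chr15:10177238-10349180 on the plus strand and at chr15:3317760-3583492 and chr15:97854425-97910630 on the minus strand. Cited1 (ENSMUSG00000051159) lies on chrX:102247381-102252181 on the minus strand. The libraries were read from the 3′ end of the RNA, so that the counts do not separate start sites or isoforms.

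Prlr and Cited1 were the members with the largest rise in epithelium between E15.5 and P0, and 1 RefSeq promoter window of each that holds a searched motif (GRCm38.p6, the 250 bases before a start site) is shown for that reason. Capitals mark motif matches. In the Prlr window at chr15:10223656-10223905 (plus strand, the second of 3 starts) these are TTCNNNGAA, the STAT site, from base -110 to -102 and TGTTCT, the core of a glucocorticoid response element on the other strand, from base -12 to -7. In the Cited1 window at chrX:102252182-102252431 (minus strand, the most upstream of 3 starts) the match is TGACC, the core of an estrogen response element on the other strand, from base -189 to -185.
Prlr start 2: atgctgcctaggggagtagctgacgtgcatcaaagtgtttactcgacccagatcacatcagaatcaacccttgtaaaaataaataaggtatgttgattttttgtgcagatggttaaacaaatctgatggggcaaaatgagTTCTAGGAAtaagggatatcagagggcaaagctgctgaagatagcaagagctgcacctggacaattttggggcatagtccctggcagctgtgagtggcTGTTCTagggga
Cited1 start 1: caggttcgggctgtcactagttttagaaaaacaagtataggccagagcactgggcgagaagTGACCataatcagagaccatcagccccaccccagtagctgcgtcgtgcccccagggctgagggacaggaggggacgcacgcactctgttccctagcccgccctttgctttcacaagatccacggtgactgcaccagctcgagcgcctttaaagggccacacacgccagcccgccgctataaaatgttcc
Counted on both strands, GGTCA was held by 35.2% of 32841 promoter windows of the same length, AGAACA by 16.1%, TTCNNNGAA by 7.02% and AGATAA, the GATA site, by 9.99%. Among the other windows of the members, Pth1r held AGAACA at its most upstream start, Esr1 held TTCNNNGAA at its second start and Cited1 held GGTCA at its most downstream start, while none of the 4 motifs lay in the windows of Pthlh, Pgr, Ghr or Vdr. A match describes letters in a window and is not a binding site.

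Between the tissues, the members split by stage. At E13.5, 3 of 7 tested members were called higher in epithelium (Pthlh, Esr1 and Nr3c1), against 10.0% of all tested genes, and 3 higher in mesenchyme (Pth1r, Ghr and Cited1), against 21.5%. At E14.5, 1 of 5 was higher in epithelium (Pthlh; 13% of all genes) and 2 higher in mesenchyme (Pth1r and Ghr; 16.9%). At E15.5, Pthlh, Nr3c1 and Cited1 were higher in epithelium (15.6% of all genes) and Pth1r, Esr1, Pgr and Ghr higher in mesenchyme (22.7%), of 9 tested. At P0, Pthlh, Prlr, Vdr and Cited1 were higher in epithelium (22.8% of all genes) and Pth1r and Ghr higher in mesenchyme (18.8%), of 9 tested. Pthlh was thus called higher in epithelium and Pth1r and Ghr higher in mesenchyme at all 4 stages, though the Ghr calls at E14.5 and P0 ended after thinning. The steroid receptors had no lasting side, and Prlr, Vdr and Cited1 stood higher in epithelium at birth. The calls of Esr1 at E13.5, Cited1 at E15.5 and Prlr at P0 also ended after thinning.

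**Figure D1:**
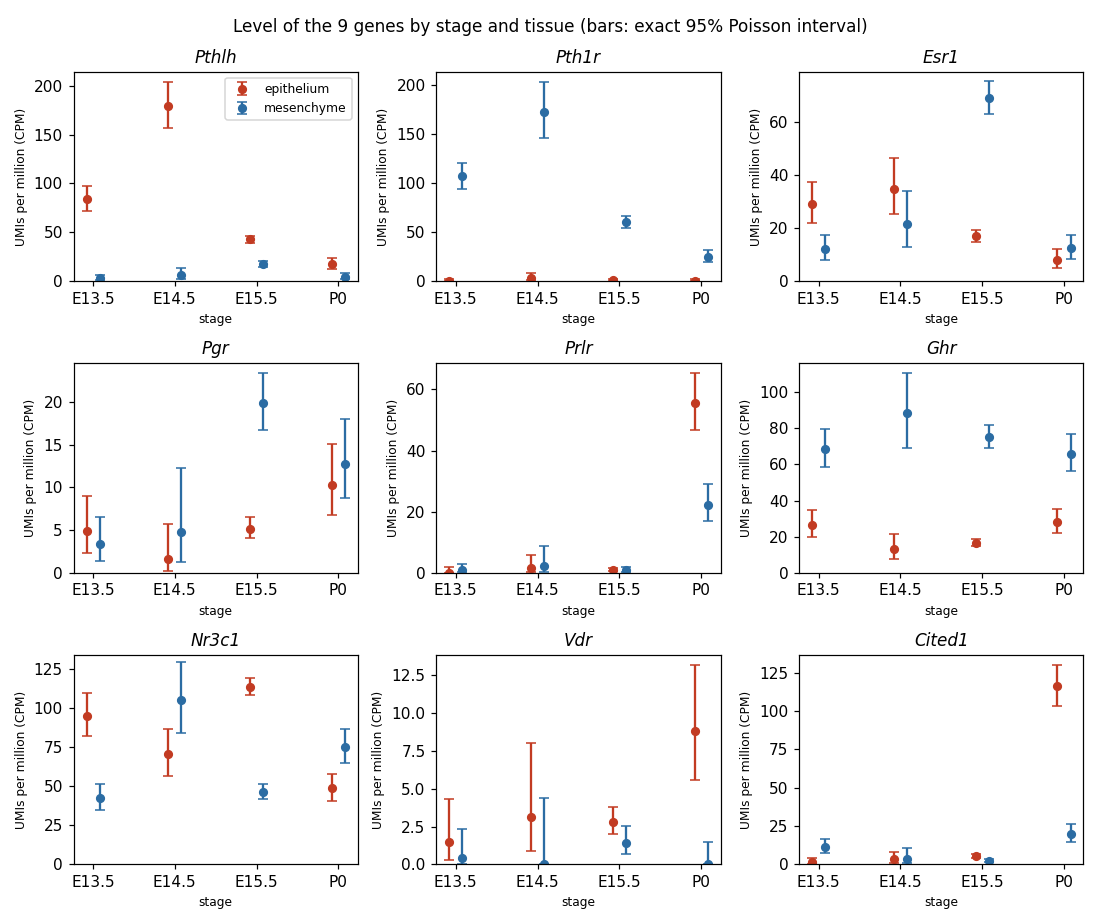
Level of the 9 genes at each stage, in CPM on the vertical axis with exact 95% Poisson intervals as bars, in epithelium (red) and mesenchyme (blue). Pthlh lies above in epithelium and Pth1r above in mesenchyme at all 4 stages, Esr1 changes sides between E13.5 and E15.5, and Prlr and Cited1 reach 55.5 and 116 CPM in P0 epithelium.

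Pthlh, the ligand of the axis, was measured at 84.2 CPM (72.1 to 97.8) in E13.5 epithelium, 179 (157 to 204) at E14.5, 42.7 (39.4 to 46.3) at E15.5 and 17.6 (12.9 to 23.5) at P0. These 4 levels were each apart from the next beyond counting error, with E14.5 the highest. In mesenchyme the level was 3.32 CPM at E13.5 from 8 UMIs, 5.97 at E14.5 from 5 UMIs, 17.2 (14.3 to 20.5) at E15.5 and 4.79 at P0 from 12 UMIs. At E14.5, 1 mesenchymal cell held 4 of the 5 UMIs. Epithelium exceeded mesenchyme 25.4-fold (12.6 to 59.7), 30.0-fold (12.7 to 93.3), 2.48-fold (2.05 to 3.03) and 3.68-fold (1.92 to 7.63) in stage order.

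The narrower gap at E15.5 came with a lower epithelial level and a higher mesenchymal one. Epithelial Pthlh at E15.5 was 1.97-fold (1.65 to 2.34) below E13.5, and was at 42.7 CPM against 179 at E14.5. Pthlh in E15.5 mesenchyme was 5.18-fold (2.55 to 12.3) above E13.5 and stood at 40.3% of the epithelial level, whereas the independent epithelial markers stood at 3.23%. A UMI of Pthlh was found in 61 of 283 E15.5 mesenchymal cells, 21.6%. In these 61 cells Epcam was at 79.3 CPM, 4.19-fold (3.22 to 5.45) above the 18.9 CPM of the other mesenchymal cells, and 3 of 9 independent epithelial genes were called higher (Cldn7, Cldn6 and Esrp1; 1.46% of all genes). The summed level of those 9 genes was 120 CPM in the cells with Pthlh and 99.9 CPM in the cells without. The part of epithelial RNA in the mesenchymal Pthlh level was not tested.

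Pthlh was detected in 28 of 98 epithelial cells at E13.5 (28.6%), 31 of 45 at E14.5 (68.9%), 211 of 532 at E15.5 (39.7%) and 26 of 230 at P0 (11.3%). After thinning each cell to 5000 UMIs these shares became 21.4%, 51.1%, 14.47% and 7.83%, so that E14.5 stayed the highest and P0 the lowest. In mesenchyme, the tissue with the low level, the thinned shares were 1.48% at E13.5 and 5.30% at E15.5.

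Within epithelium, Pthlh lay in cells that carry bud genes. On these samples the study named Ndnf, Msx1, Tbx3, Sostdc1 and Wnt6 beside Pthlh as early genes, and Wnt10b, Bmp2 and Lmo1 beside Pthlh at E15.5. The bud list holds these genes and is not independent evidence of its direction. Epithelial cells were split by whether mammary bud genes or epidermal genes had the larger summed UMIs, which gave 68 bud and 28 epidermal cells at E13.5, 39 and 6 at E14.5 and 320 and 197 at E15.5, with 13, 4 and 66 cells within 2 UMIs of the border. Pthlh was at 120 CPM in the bud cells against 1.73 in the epidermal cells at E13.5, a ratio of 69.1 (12.2 to 2747) that rests on 1 epidermal UMI. At E14.5 it was 220 CPM against no UMI, at least 17.4-fold higher. By E15.5 it was 64.9 against 11.5 CPM, 5.63-fold (4.34 to 7.40) higher.

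The 28 E13.5 cells with a Pthlh UMI had 6 of 10 bud genes called higher than the 70 cells without, none lower and a median log2 ratio of 1.93, where 7.30% of all tested genes were called higher. Msx1, a homeobox gene of the bud, was at 196 CPM against no UMI, at least 99.8-fold. Sostdc1, a Wnt and Bmp antagonist, was at 414 against 36.7 CPM, 11.3-fold higher. Tbx3, a T-box gene that early mammary buds need, was at 276 against 52.4 CPM and Bmp2 at 93.2 against 7.20 CPM. Of 6 tested epidermal genes, 3 were lower (4.69% of all genes), among them Krt15 at 124 against 496 CPM. Outside the lists, Id3 was at 1948 against 108 CPM, 18-fold higher.

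At E14.5 the 31 cells with Pthlh had 5 of 10 bud genes called higher than the 14 cells without (15.9% of all genes), among them Ndnf at 334 against 13.2 CPM and Tbx3 at 241 against 30.8 CPM. Lmo1 was lower, at 26.9 against 158 CPM. All 5 tested epidermal genes were lower (7.67% of all genes), with Krt1, a keratin of differentiating epidermis, at 3.66 against 216 CPM, but only 2 after thinning and 1 without cells that Scrublet called doublets, which are 27 of the 76 kept at E14.5. Of 7 proliferation genes, 6 were lower, among them Top2a at 44.0 against 251 CPM.

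The E15.5 contrast was smaller for bud genes and kept its direction for epidermal genes. Over 211 cells with and 321 without Pthlh, 3 of 10 bud genes were higher (3.37% of all genes), with Ndnf at 120 against 42.0 CPM and Tbx3 at 56.3 against 20.8 CPM. All 8 tested epidermal genes were lower (2.25% of all genes), Krt1 at 3.96 against 194 CPM and Krt10 at 32.7 against 312 CPM, and 5 were lower after thinning. The study placed Pthlh in its basal-like cells at E15.5, also by RNA in situ hybridization. Of the 6 tested genes of the basal list, 0 were higher and 0 lower in the cells with Pthlh. Proliferation genes did not have the direction they had at E14.5, with 1 of 7 higher and none lower, a median log2 ratio of 0.88 and a summed level of 627 against 344 CPM. At P0 the 26 cells with Pthlh had 6 of 7 proliferation genes lower (1.70% of all genes), with Top2a at 6.74 against 141 CPM, and 0 lower after thinning.

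**Figure D2:**
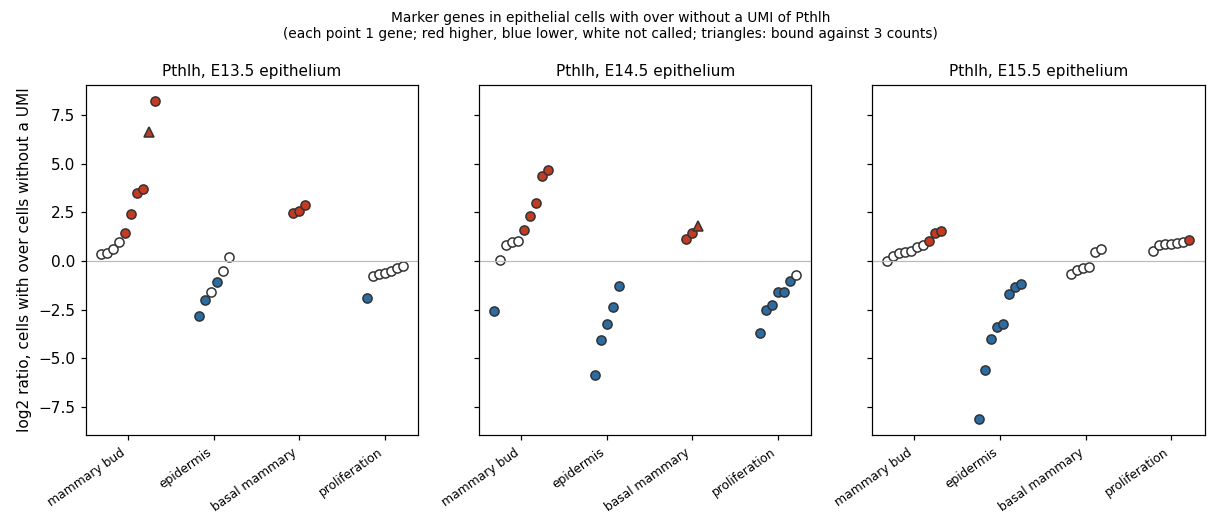
Marker genes in epithelial cells with a UMI of Pthlh over cells without one, as log2 ratios, with a panel per stage from E13.5 to E15.5. Each point is a gene of the mammary bud, epidermis, basal mammary or proliferation list, red where called higher, blue where called lower, white where not called, and a triangle where 1 side had no UMI and the value is a bound against 3 counts. Called bud genes lie above the line of equal levels except for Lmo1 at E14.5. Called epidermal genes lie below it at all 3 stages.

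Pth1r, the receptor, had the opposite tissue. In mesenchyme it was at 107 CPM (94.4 to 121) at E13.5, 173 (146 to 204) at E14.5, 60.3 (54.8 to 66.3) at E15.5 and 25.1 (19.3 to 32.1) at P0, each level apart from the next. In epithelium it was at 0.490, 3.14, 1.26 and 0.765 CPM, from 1, 4, 18 and 2 UMIs. Mesenchyme exceeded epithelium by ratios of 219 (38.9 to 8671; 1 epithelial UMI), 55.1 (21.1 to 205), 47.9 (30.0 to 81.6) and 32.8 (8.72 to 277; 2 epithelial UMIs). The ligand in epithelium and the receptor in mesenchyme shared the order E14.5, E13.5, E15.5, P0. At E14.5, Scrublet called 11 of 45 epithelial and 16 of 31 mesenchymal cells doublets. The order without them was not tested.

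A UMI of Pth1r was found in 93 of 135 mesenchymal cells at E13.5 (68.9%), 28 of 31 at E14.5 (90.3%), 189 of 283 at E15.5 (66.8%) and 48 of 273 at P0 (17.6%), and in 3.2% of epithelial cells at E15.5. Thinned to 5000 UMIs, the mesenchymal shares were 32.6%, 58.1%, 25.1% and 9.89%. Pth1r was 4.26-fold lower (3.23 to 5.71) at P0 than at E13.5 in mesenchyme, where 33.5% of all tested genes were called lower at P0 and the median log2 ratio of all genes was -0.59.

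Of the 16 other genes of PTHrP signalling and of the mesenchymal response, 4 of 14 tested were higher in epithelium and 7 higher in mesenchyme at E13.5. The counts were 4 and 6 of 14 at E14.5, 2 and 5 of 14 at E15.5 and 3 and 4 of 12 at P0. Of all tested genes, 10.0% were higher in epithelium and 21.5% in mesenchyme at E13.5, and 13% and 16.9% at E14.5. At E15.5 these shares were 15.6% and 22.7%, and at P0 they were 22.8% and 18.8%. The epithelial counts at E15.5 and P0 lay near their shares. The median log2 ratio of epithelium over mesenchyme in the list was -0.83 at E13.5 and -0.41 at P0, beside -0.20 and 0.26 over all genes. Wnt10b, a Wnt ligand of the bud, was at 71.0 CPM in epithelium against 1.66 in mesenchyme at E13.5. Tnc, an extracellular matrix gene of condensed mesenchyme, was at 206 CPM in mesenchyme against 2.10 in epithelium at E15.5. Rgs2, a regulator of G protein signalling, changed sides, with 1.47 CPM in epithelium against 41.1 in mesenchyme at E13.5 and 53.2 against 17.5 at P0. Mmp2, a matrix metalloprotease, was at 17.6 CPM in epithelium against 581 in mesenchyme at P0.

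Esr1, which encodes estrogen receptor alpha, was at 28.9 CPM (22 to 37.3) in E13.5 epithelium, 34.6 (25.1 to 46.4) at E14.5, 16.9 (14.8 to 19.1) at E15.5 and 8.03 (4.97 to 12.3) at P0. In mesenchyme it was at 12 CPM (8.06 to 17.3), 21.5 (12.7 to 33.9), 68.9 (63.0 to 75.2) and 12.4 (8.4 to 17.5). The E15.5 mesenchymal level stood apart from the next, and every other pair of neighbours in the order of levels overlapped. Epithelium was 2.40-fold (1.51 to 3.88) above mesenchyme at E13.5, and mesenchyme was 4.08-fold (3.50 to 4.78) above epithelium at E15.5. At E14.5 the ratio of epithelium over mesenchyme was 1.61 (0.911 to 2.96) and at P0 it was 0.650 (0.355 to 1.17), neither called. After thinning every cell to 5000 UMIs the E13.5 log2 ratio was 1.36 and the call ended.

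Expressed as the part of the summed level of both tissues that lay in epithelium, Esr1 was at 70.6%, 61.7%, 19.7% and 39.4% from E13.5 to P0. A UMI of Esr1 was found in 10.4% of mesenchymal cells at E13.5 (14 of 135) and in 63.3% at E15.5 (179 of 283), 3.70% and 24.0% once thinned. In epithelium the share was 26.5% at E13.5 and 30.5% at E15.5, 10.2% and 8.65% once thinned. The mesenchymal level at E15.5 was 5.72-fold (3.93 to 8.63) above E13.5, where 6.38% of all tested genes were called higher, and 5.57-fold (3.87 to 8.29) above P0.

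**Figure D3:**
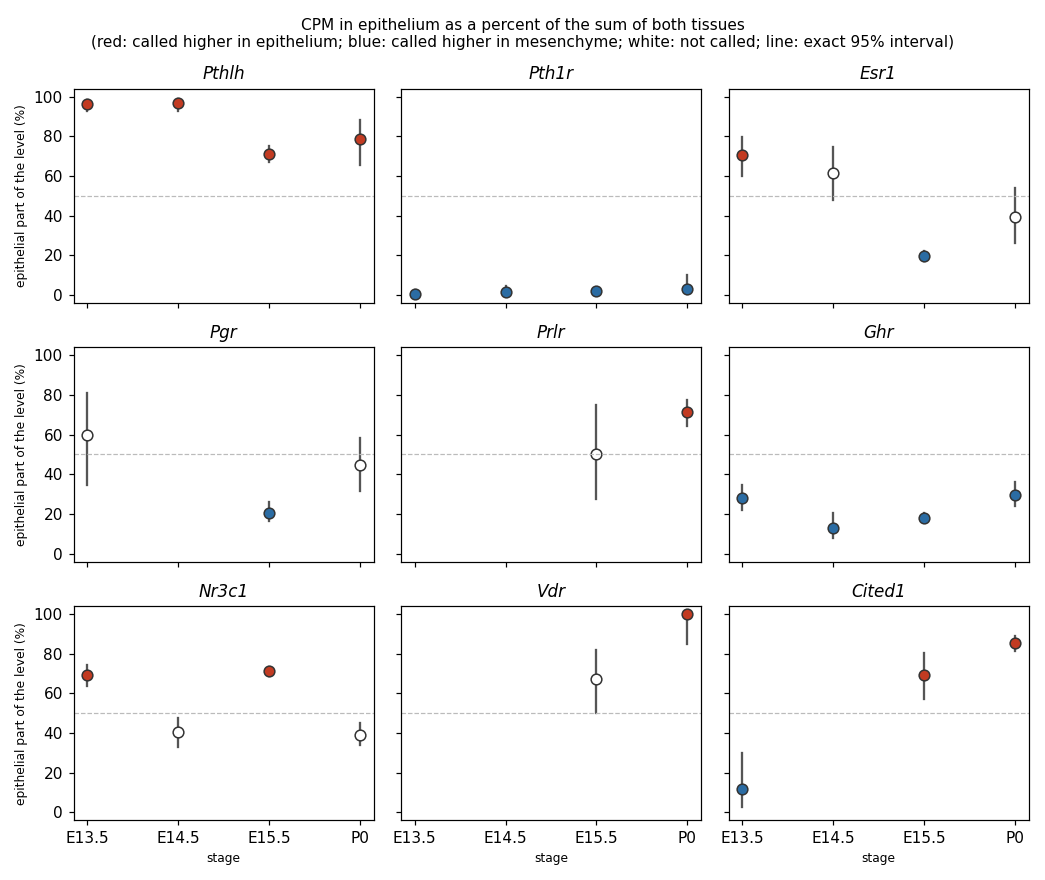
Part of the summed CPM of both tissues that lay in epithelium, in percent, for each gene and stage with at least 10 UMIs. Points are red where the gene was called higher in epithelium, blue where called higher in mesenchyme and white where not called, and the dashed line marks equal levels at 50%. Esr1 goes from 70.6% at E13.5 to 19.7% at E15.5, while Cited1 goes from 11.6% at E13.5 to 85.4% at P0.

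The E15.5 mesenchymal cells with Esr1 differed from those without in several marker groups. The 179 cells with a UMI had a median of 26549 UMIs and the 104 without had 20786.5. All 4 genes of the dermal mesenchyme list were lower in the cells with Esr1 (5.42% of all genes), with Cdkn1c, a cell cycle inhibitor, at 492 against 1815 CPM and Plagl1 at 78.8 against 450 CPM. Of 7 proliferation genes, 6 were higher (4.36% of all genes), with Top2a at 441 against 155 CPM. After thinning, 1 dermal gene was lower and 0 proliferation genes were higher. In the sub-epithelial list of 3 genes, Lef1, a mediator of Wnt signalling, was higher at 125 against 51.9 CPM and no gene was lower. The dermal and sub-epithelial lists are ones that the study chose on these samples and are not independent evidence of their direction. On these E15.5 cells the study also chose Esr1 itself as a marker of the sub-epithelial group, opposed to Plagl1 and Cdkn1c. It found the receptor protein by staining in mesenchyme around the bud. The direction of both lists in this split was thus given by the choice of the splitting gene. Markers of other tissues were lower too, with 5 of 9 independent epithelial genes (summed level 65.7 against 192 CPM), 4 of 6 tested epidermal genes (48.4 against 199.9 CPM) and 3 of 9 independent mesenchymal genes (2779 against 5192 CPM) called lower, and their part in the split was not tested. Hopx, outside the lists, was at 49.4 against 5.81 CPM.

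In E15.5 epithelium, the 162 cells with Esr1 had 6 of 8 epidermal genes lower than the 370 cells without (1.38% of all genes), with Krt1 at 4.57 against 165 CPM, and 2 of 10 bud genes higher (1.84% of all genes), Tbx3 at 56.7 against 25.9 CPM and Ndnf at 120 against 53.7 CPM. At E14.5, Esr1 was at 40.5 CPM in bud cells against 8.43 in epidermal cells, 4.81-fold (1.25 to 41.0) higher over only 6 epidermal cells. No such difference was called at E13.5, with 30.9 against 26.0 CPM, or at E15.5, with 19.98 against 12.8 CPM.

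Pgr, the progesterone receptor gene, was low. In epithelium it was at 4.90 CPM from 10 UMIs at E13.5, 1.57 from 2 UMIs at E14.5, 5.18 (4.07 to 6.50) at E15.5 and 10.3 (6.81 to 15.0) at P0. The mesenchymal levels were 3.32 CPM from 8 UMIs, 4.77 from 4 UMIs, 19.8 (16.7 to 23.4) and 12.8 (8.73 to 18). Mesenchyme exceeded epithelium 3.83-fold (2.87 to 5.14) at E15.5. At P0 the ratio of epithelium over mesenchyme was 0.809 (0.466 to 1.39) and was not called. Like Esr1, Pgr was highest in E15.5 mesenchyme, 5.97-fold (2.95 to 14.1) above E13.5, and the P0 mesenchymal level was the next in order and apart from it. Epithelial Pgr was 1.99-fold (1.23 to 3.14) higher at P0 than at E15.5, just under the fold required.

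Within E15.5 mesenchyme the 2 receptors were detected together. Esr1 was found in 57 of 71 cells with Pgr, 80.3% (69.1 to 88.8), and in 122 of 212 cells without, 57.5%. The cells with Pgr were deeper, with a median of 29358 UMIs against 22869.5, and after thinning the shares were 27.8% and 23.8%. In P0 epithelium Esr1 and Pgr shared 3 cells, 15.8% of the 19 cells with Pgr or with Esr1.

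Nr3c1, the glucocorticoid receptor gene, was found broadly. It was at 95 CPM (82.1 to 109) in E13.5 epithelium, 70.7 (56.8 to 86.9) at E14.5, 114 (108 to 119) at E15.5 and 48.6 (40.5 to 57.8) at P0. In mesenchyme it was at 42.4 CPM (34.5 to 51.4), 105 (84.2 to 129), 46.4 (41.6 to 51.6) and 75.4 (65.0 to 86.9). Epithelium was 2.24-fold (1.76 to 2.88) higher at E13.5 and 2.45-fold (2.18 to 2.76) higher at E15.5. The ratio of epithelium over mesenchyme was 0.673 (0.496 to 0.914) at E14.5 and 0.645 (0.511 to 0.811) at P0, below 1 but short of the fold required. Nr3c1 did not differ between bud and epidermal cells by the call at any stage, with 88.4 against 108 CPM at E13.5, 69.5 against 75.9 at E14.5 and 117 against 107 at E15.5. In E15.5 epithelium the 440 cells with Nr3c1 had 3 of 7 proliferation genes higher than the 92 without (1.19% of all genes), and Sbsn, an epidermal gene, at 103 against 41.4 CPM.

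A move of the steroid receptors from a call in mesenchyme to a later call in epithelium was not what these levels gave. The epithelial part of Esr1 was 70.6%, 61.7%, 19.7% and 39.4% in stage order, and that of Nr3c1 was 69.2%, 40.2%, 71.0% and 39.2%. That of Pgr was 20.7% at E15.5 and 44.7% at P0. The parts of Esr1 and Pgr thus rose from E15.5 to P0, and neither gene had a call at P0. Esr1 was called higher in epithelium at no stage after E13.5, except at E14.5 without the cells that Scrublet called doublets (log2 ratio 2.25 in place of 0.69), and Pgr was called higher in epithelium at none.

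Vdr, the vitamin D receptor gene, was at 1.47 CPM from 3 UMIs in E13.5 epithelium, 3.14 from 4 UMIs at E14.5, 2.80 (2.00 to 3.81) at E15.5 and 8.80 (5.58 to 13.2) at P0. In mesenchyme it had 1, 0, 10 and 0 UMIs. The exact interval of no UMI in P0 mesenchyme reaches 1.47 CPM, and against a bound of 3 counts (1.20 CPM) epithelium was at least 7.35-fold higher. In epithelium P0 was 3.14-fold (1.80 to 5.38) above E15.5. A UMI of Vdr was found in 22 of 230 P0 epithelial cells, 9.57%, and 6.52% once thinned, against 0 of 273 mesenchymal cells, where 3 cells with a UMI would be 1.10%.

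The 22 P0 epithelial cells with Vdr had 4 of 6 basal genes lower than the 208 without (1.45% of all genes), with Acta2, smooth muscle actin, at 10.5 against 538 CPM. All 7 proliferation genes were higher (4.20% of all genes), but 1 cell held 51.9% to 63.6% of their UMIs on the Vdr side.

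Beside the members, 19 other steroid and nuclear receptor genes leaned to mesenchyme. Of the tested genes, 7 of 14 were higher in mesenchyme at E13.5, 6 of 12 at E14.5, 8 of 18 at E15.5 and 7 of 13 at P0, against 0, 0, 2 and 1 higher in epithelium. Among all tested genes, 21.5%, 16.9%, 22.7% and 18.8% were higher in mesenchyme in stage order. The shares higher in epithelium were 10.0%, 13%, 15.6% and 22.8%. The median log2 ratio of epithelium over mesenchyme in the list was -1.02, -0.95, -0.39 and -1.88. Over all genes it was -0.20, 0.01, -0.12 and 0.26. Nr2f1, an orphan nuclear receptor gene, was at 1.47 CPM in E13.5 epithelium against 34.9 in mesenchyme and at 0.840 against 8.4 CPM at E15.5. Thrb, a thyroid hormone receptor gene, was higher in E15.5 epithelium, at 7.49 against 1.10 CPM.

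The 18 genes of receptor partners and chaperones mostly lacked a call, with 2 higher in epithelium and 2 higher in mesenchyme of 17 at E13.5 and 4 and 1 of 17 at P0, near or below the 10.0%, 21.5%, 22.8% and 18.8% of all genes, with median log2 ratios of 0.04 and 0.54. Gata3, a transcription factor of luminal cells, was the steady exception, at 132 against 5.40 CPM, 390 against 1.19, 172 against 10.5 and 53.5 against 3.19. Foxa1, a pioneer factor for the estrogen receptor, had 14 CPM in E15.5 epithelium and no UMI in mesenchyme, and 42.1 against 0.798 CPM at P0. Ncoa1, a receptor coactivator, was higher in mesenchyme, at 54.0 against 18.6 CPM at E13.5.

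Of 12 glucocorticoid and vitamin D genes, 0 of 5 tested were higher in epithelium and 3 higher in mesenchyme at E13.5, and 2 and 5 of 9 at P0, where the shares over all genes were 10.0% and 21.5% at E13.5 and 22.8% and 18.8% at P0. The median log2 ratio of the list was -1.01 at E13.5 and -2.42 at P0. Tsc22d3, a gene that glucocorticoids induce, was at 17.6 CPM in epithelium against 44.0 in mesenchyme at E13.5, 4.83 against 40.6 at E15.5 and 4.59 against 38.7 at P0. S100g, a calcium-binding protein gene that vitamin D induces in the gut, was higher in P0 epithelium, at 47.0 against 1.99 CPM. The 10 steroid enzyme genes with a unique symbol split evenly or nearly so, with 1 higher in epithelium and 2 higher in mesenchyme of 6 at E13.5 and 2 and 2 of 5 at P0. Srd5a1, which makes dihydrotestosterone from testosterone, was higher in epithelium, at 26.0 against 5.40 CPM at E13.5 and 56.5 against 4.41 at E15.5.

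Prlr, the prolactin receptor gene, was low until birth. Epithelium had no UMI at E13.5, an exact interval that reaches 1.81 CPM, then 2 UMIs at E14.5 and 0.979 CPM from 14 UMIs at E15.5. At P0 the level was 55.5 CPM (46.8 to 65.3), 56.6-fold (32.7 to 106) above E15.5. Mesenchyme had 2, 2 and 7 UMIs at the embryonic stages and 22.3 CPM (16.9 to 29.0) at P0, 23.2-fold (10.5 to 60.2) above E15.5. Both tissues thus had their highest Prlr level at P0, and the epithelial level was 2.48-fold (1.81 to 3.44) above the mesenchymal one.

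A UMI of Prlr was found in 41 of 230 P0 epithelial cells (17.8%) and 29 of 273 mesenchymal cells (10.6%), 11.7% and 8.42% once thinned. The epithelial cells with Prlr had a median of 12976 UMIs and those without 9586. Counted after thinning, the P0 tissue difference of Prlr was 0.80 on the log2 scale, and as a mean over cells it was 0.90, both short of the fold required.

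Ghr, the growth hormone receptor gene, was called higher in mesenchyme at all 4 stages. Its mesenchymal levels were 68.5 CPM (58.5 to 79.8), 88.3 (69.3 to 111), 75.1 (68.9 to 81.6) and 65.8 (56.1 to 76.6), and no 2 neighbours in this order were apart. In epithelium it was at 26.4 CPM (19.9 to 34.5), 13.4 (7.78 to 21.4), 16.7 (14.6 to 18.9) and 27.9 (21.9 to 35.1). Mesenchyme exceeded epithelium 2.59-fold (1.89 to 3.59), 6.61-fold (3.87 to 12), 4.51-fold (3.86 to 5.27) and 2.36-fold (1.78 to 3.15). The P0 call ended after thinning, at -0.81 on the log2 scale of epithelium over mesenchyme, and as a mean over cells, at -0.91. The E14.5 call also ended after thinning, at -1.71.

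Ghr was found in 61.5%, 74.2%, 75.6% and 40.7% of mesenchymal cells and in 35.7%, 26.7%, 29.7% and 23% of epithelial cells. In E13.5 epithelium it was lower in the bud cells, with 19.6 CPM against 43.4 in the epidermal cells.

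The 12 genes of prolactin and growth hormone signalling included strong markers of each tissue. At P0, 2 of 11 tested were higher in epithelium and 7 higher in mesenchyme, and the counts were 2 and 4 of 10 at E13.5, 0 and 3 of 10 at E14.5 and 2 and 5 of 11 at E15.5. Over all genes these shares were 22.8% and 18.8% at P0 and 10.0% and 21.5% at E13.5. They were 13% and 16.9% at E14.5 and 15.6% and 22.7% at E15.5. The median log2 ratio of the list was -1.33 at P0 and -0.78 at E13.5, beside 0.26 and -0.20 over all genes. Igf1, the growth factor that growth hormone induces, was at 210, 222, 565 and 259 CPM in mesenchyme against 12.2, 3.93, 1.47 and 1.91 in epithelium. Elf5, an effector of prolactin in alveolar cells, was at 44.1 CPM in E13.5 epithelium against no UMI, and at 23.3 against 1.20 CPM at P0. Socs2, a feedback inhibitor, was higher in epithelium at E13.5, at 123 against 37.0 CPM, and at P0, at 68.5 against 27.1 CPM.

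Among 18 other peptide hormone receptor and receptor-modifying genes, 5 of 7 tested were higher in mesenchyme and 1 in epithelium at E13.5. The counts were 5 and 2 of 9 at P0. Of all genes, 21.5% were higher in mesenchyme and 10.0% in epithelium at E13.5, and 18.8% and 22.8% at P0. The P0 epithelial count lay near its share. Median log2 ratios of the list were -1.64 and -3.06, beside -0.20 and 0.26 over all genes. Ramp2, which modifies the calcitonin receptor-like receptor, was at 33.2 CPM in mesenchyme against no UMI at E13.5 and at 114 against 1.91 CPM at P0. Ramp3, of the same list, was higher in P0 epithelium, at 32.9 against 5.18 CPM.

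Cited1, the co-regulator gene, changed sides between E13.5 and birth. In epithelium it was at 1.47 CPM from 3 UMIs at E13.5, 3.14 from 4 UMIs at E14.5, 5.32 (4.19 to 6.66) at E15.5 and 116 (104 to 130) at P0. In mesenchyme it was at 11.2 CPM (7.39 to 16.3), 3.58 from 3 UMIs of 1 cell, 2.34 from 17 UMIs and 19.9 (14.8 to 26.3). Mesenchyme exceeded epithelium 7.63-fold (2.35 to 39.3) at E13.5, and epithelium exceeded mesenchyme 2.27-fold (1.33 to 4.10) at E15.5 and 5.83-fold (4.31 to 8.03) at P0. At E15.5, 1 epithelial cell held 39 of the 76 UMIs, and without the richest cell of each tissue the log2 ratio was 0.32 and was not called. The P0 epithelial level was 21.9-fold (17.0 to 28.5) above E15.5.

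A UMI of Cited1 was found in 37 of 230 P0 epithelial cells (16.1%) and 35 of 273 mesenchymal cells (12.8%), 11.3% and 9.16% once thinned. The shares were near each other while the levels differed 5.83-fold, and the richest epithelial cell held 41 UMIs. Among E15.5 epithelial cells, bud cells had 8.18 CPM against 1.42 in epidermal cells, 5.77-fold (2.77 to 13.9) higher, on UMIs that include the cell with 39.

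Between the stages, 3 of 9 members were called higher in epithelium at P0 than at E15.5 (Prlr, Cited1 and Vdr; 14.6% of all genes) and 3 lower (Pthlh 2.43-fold, Esr1 2.10-fold and Nr3c1 2.34-fold; 14.3%). After thinning the same comparison had 5 higher and 1 lower. Against E13.5, 3 of 8 were higher (the same 3 genes; 16.3% of all genes), Prlr at least 37.7-fold, Vdr 5.99-fold (1.81 to 31.1) and Cited1 79.1-fold (26.8 to 386) over 3 UMIs, and Pthlh and Esr1 were lower (19.7%). In mesenchyme, 2 of 9 were higher at P0 than at E15.5 (Prlr and Cited1; 14.3% of all genes) and 3 lower (Pthlh, Pth1r and Esr1; 23.8%). Against E13.5, 2 of 8 were higher (Pgr and Prlr, beside 13.8% of all genes) and Pth1r was lower, beside 33.5% of all genes. Between E13.5 and E15.5, epithelium had 1 member called higher (Cited1, over 3 UMIs at E13.5), beside 10.5% of all genes. This count was 0 after thinning and without the richest cell. Mesenchyme had 3 higher at E15.5 (Pthlh, Esr1 and Pgr, beside 6.38% of all genes) and 1 lower (Cited1, beside 13.4%). The E15.5 library carries a different software version in its file header from the other stages. Epithelium includes skin cells, and their share was not the same at each stage. The summed level of the epidermal list in epithelium was 516 CPM at E13.5, 1662 at E15.5 and 98.7 at P0. The part of this in the epithelial stage differences was not tested.

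Most cells held UMIs of only a few of the 9 genes. A cell held a UMI of on average 1.63, 2.22, 2.11 and 1.33 members in epithelium and 2.01, 2.81, 3.18 and 1.41 in mesenchyme, 6 at most. After thinning these means were 0.796, 1.13, 0.754 and 0.826 in epithelium and 0.830, 1.29, 1.18 and 0.916 in mesenchyme. At P0, 26.5% of epithelial cells and 22.7% of mesenchymal cells held none.

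Co-detection was computed for 552 ordered pairs of members over the 8 groups of stage and tissue, of which 352 had at least 10 cells with and 10 without the gene that set the split. In 11 of them the other gene was found more often in the cells with that gene and in 6 less often, by exact binomial intervals that did not overlap. In P0 epithelium 7 of 64 such pairs were more frequent, and all 7 were among Prlr, Cited1, Esr1 and Pgr. Among the 7, Prlr with Cited1, Esr1 with Prlr and Esr1 with Cited1 were each counted in both directions. The share over pairs of all genes was not computed, and deeper cells detect more genes, so these counts have no background beside them. The pairs described here were chosen after their values were seen. On these P0 cells the study had already named Prlr, Cited1 and Esr1 together as mature luminal markers. Their co-detection is thus not independent of that grouping.

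Prlr and Cited1 were often found in the same cells. In P0 epithelium Prlr was found in 23 of 37 cells with Cited1, 62.2% (44.8 to 77.5), and in 18 of 193 cells without, 9.33%. In the other direction Cited1 was found in 23 of 41 cells with Prlr, 56.1% (39.7 to 71.5), and in 14 of 189 without, 7.41%. The cells with Cited1 were deeper, with a median of 14038 UMIs against 9580. At 5000 UMIs per cell Prlr was still found in 42.3% of the cells with Cited1 and 7.84% of those without. Neither gene was found in 175 of the 230 cells. In P0 mesenchyme Cited1 was found in 7 of 29 cells with Prlr, 24.1%, and in 11.5% of those without, with intervals that overlapped.

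**Figure D4:**
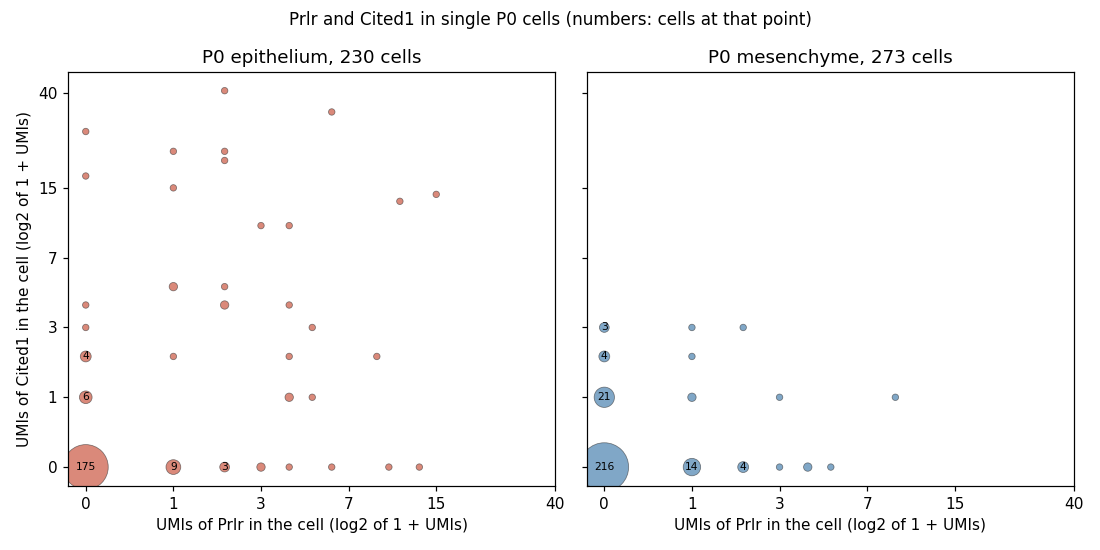
UMIs of Prlr (horizontal) against UMIs of Cited1 (vertical) in single P0 cells, on log2(1 + UMI) axes, with 230 epithelial cells in the left panel and 273 mesenchymal cells in the right. Points grow with the number of cells, which is printed where it exceeds 2, and 23 epithelial but only 7 mesenchymal cells lie off both axes.

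The estrogen receptor gene was found with both. Prlr and Cited1 were each found in 10 of 19 P0 epithelial cells with Esr1, 52.6% (28.9 to 75.6), against 14.7% and 12.8% of the 211 cells without. Thinning left 11 cells with Esr1, of which 2 held Prlr and 2 held Cited1, 18.2%, against 11.4% and 11%. Cited1 was found in 8 of 19 cells with Pgr, 42.1%, against 13.7%. Ghr went the other way, in 3 of 41 cells with Prlr, 7.32%, against 26.5% of the cells without.

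The P0 epithelial cells with Prlr were set apart by luminal and proliferation genes. Against the 189 cells without, the 41 cells with Prlr had 5 of 6 basal genes lower (6.31% of all genes), with Acta2 at 85.7 against 609 CPM and Myl9 at 3.12 against 62.4 CPM. Of 8 luminal progenitor genes, 6 were lower, with Wfdc18 at 871 against 4953 CPM and Aldh1a3, a retinaldehyde dehydrogenase, at 128 against 871 CPM. Of 6 mature luminal genes, 3 were higher (7.23% of all genes), namely Areg, an EGF receptor ligand that estrogen induces in the adult gland, at 2648 against 610 CPM, Foxa1 at 79.5 against 29.9 CPM and Prom1 at 40.5 against 10.6 CPM. Wnt4 of the same list was lower, at 4.68 against 16.2 CPM. All 7 proliferation genes were higher, Mki67 at 220 against 22.3 CPM and Top2a at 372 against 45.6 CPM. Krt19, a luminal keratin, was at 1329 against 425 CPM. On these samples the study named Prlr, Cited1 and Esr1 as mature luminal markers at P0. It named Acta2 and Myh11 as basal and Aldh1a3, Notch1 and Lypd3 as luminal progenitor markers. The basal and luminal progenitor lists are thus not independent evidence of their direction.

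The 37 cells with Cited1 showed the same directions, and 23 of them are among the cells with Prlr. All 6 basal genes were lower (8.08% of all genes), with Acta2 at 19.1 against 626 CPM. Of 8 luminal progenitor genes, 7 were lower, with Lcn2 at 365 against 1907 CPM and Csn3, kappa-casein, at 270 against 1710 CPM. Areg, Foxa1 and Prom1 were again higher (8.92% of all genes), Areg at 2789 against 581 CPM, and Wnt4 again lower. All 7 proliferation genes were higher, with Pclaf at 185 against 9.06 CPM and Mki67 at 233 against 19.6 CPM. After thinning, 3 basal genes were lower and 2 proliferation genes higher, for the cells with Prlr as for those with Cited1.

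**Figure D5:**
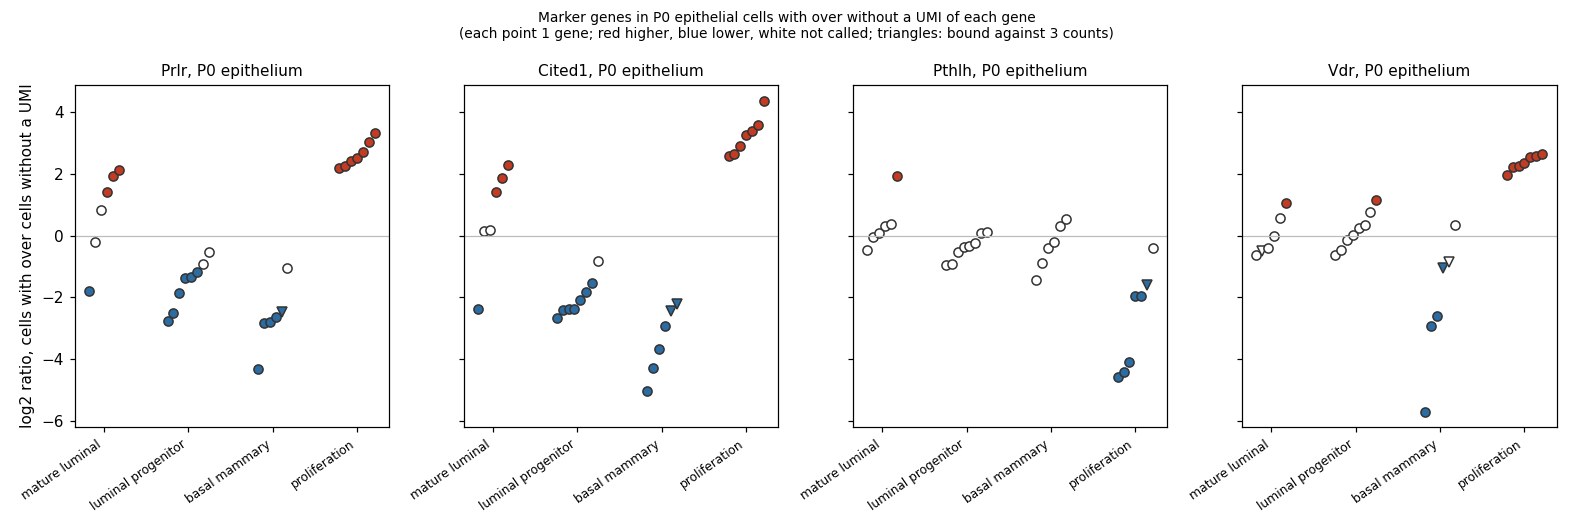
Marker genes in P0 epithelial cells with a UMI of Prlr, Cited1, Pthlh or Vdr over cells without, as log2 ratios on the vertical axis. Each member has a panel, with the mature luminal, luminal progenitor, basal mammary and proliferation lists along the horizontal axis. Colours and triangles are as in the plot of cells with Pthlh. Called basal genes lie below the line of equal levels and called proliferation genes above it for Prlr, Cited1 and Vdr. The called proliferation genes of Pthlh lie below it.

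The 9 hormone-sensing output genes differed in tissue. At P0, 3 of 7 tested were higher in epithelium and 2 higher in mesenchyme, and the counts were 3 and 2 of 6, 3 and 1 of 5 and 2 and 4 of 7 at the stages before. At P0, 22.8% of all genes were higher in epithelium and 18.8% higher in mesenchyme. These shares were 10.0% and 21.5% at E13.5, 13% and 16.9% at E14.5, and 15.6% and 22.7% at E15.5. The median log2 ratio at P0 was 0.43 in the list and 0.26 over all genes. Areg was at 72.8 CPM in E15.5 epithelium against 2.62 in mesenchyme and at 1110 against 14.8 CPM at P0, 75.3-fold higher. Ccnd1, cyclin D1, changed sides, with 31.3 CPM in epithelium against 316 in mesenchyme at E13.5 and 81.1 against 28.3 at P0.

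The P0 mesenchymal cells with Prlr differed from the rest in fibroblast genes. Against the 244 cells without, the 29 with Prlr had all 4 genes of the Pi16 fibroblast list lower (2.00% of all genes), with Pi16 at 81.2 against 434 CPM, and 2 of 3 genes of the Eln fibroblast list higher (3.31% of all genes), with Eln, elastin, at 1985 against 800 CPM. Of 7 tested independent epithelial genes, 2 were higher, with Cldn7 at 118 against 21.2 CPM, mostly from 1 cell that held 58.6% of its UMIs on the Prlr side. The 35 cells with Cited1 had 2 of 4 Pi16 list genes lower (1.91% of all genes), and Fabp4, a fatty acid-binding protein of adipocytes, at 821 against 292 CPM, while 1 of 7 independent epithelial genes was lower. The fibroblast lists were chosen by the study on these samples. The 16 cells with Pgr had 2 of 4 Col15a1 list genes lower (2.04% of all genes), with Fabp4 at 12.3 against 380 CPM.

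At E13.5 the nuclear receptor gene Nr3c1 was found less often in the epithelial cells with the ligand than in those without. Nr3c1 was found in 8 of 28 cells with Pthlh, 28.6% (13.2 to 48.7), and in 50 of 70 cells without, 71.4%. The depths were 17354.5 and 21775 UMIs, and after thinning the shares were 4.76% and 37.7%. Ghr was found in 3 of the same 28 cells, 10.7%, against 45.7% of the others. At E14.5, 15 of the 16 epithelial cells with Esr1 also had Pthlh, which were 48.4% of the 31 cells with Pthlh, against 1 of 14 cells without, 7.14%. Intervals of the latter pair overlapped.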

How the data were processed

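Single-cell RNA was measured in 1 library per stage, 4 stages in all. The deposited values are UMI counts per gene and barcode, which the authors made with Cell Ranger on the mouse mm10 genome. The submitters' processing notes give version 6.0.0 for every library, while the header of the deposited E15.5 counts gives 3.1.0. The E15.5 gene list holds 31053 identifiers and the other lists 32285. No deposited cell annotation entered the calculations.

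Cells were kept and assigned to tissues as the report describes, 3 cells with equal sums were left out of both tissues, and doublets were kept (Scrublet called 4, 27, 10 and 3 cells in stage order, in an alternative without them). UMIs were summed per tissue with Python 3.11.15, numpy 2.4.6, scipy 1.17.1 and scanpy 1.11.5. Ratios have exact conditional binomial intervals and shares exact Clopper-Pearson intervals, all at 95%. Where 1 group had no UMI, the ratio was bounded against 3 counts over the group. Depth ran from 838030 UMIs summed over E14.5 mesenchyme to 14293755 over E15.5 epithelium. The ratio calculation was tested only on simulated Poisson counts, the model that the intervals assume. These hold no spread between cells, so the test cannot show how the intervals do where 1 cell holds many UMIs.

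The 9 genes, the lists of marker and pathway genes and the comparisons were chosen with earlier results of these data known. All 9 were described at every stage. From each list and stage at most the 2 genes with the largest called ratio in each direction and at least 50 UMIs were named between tissues, and in cells with and without a member the list genes and up to 5 others with the highest lower limit. Epcam, used in the tissue rule, was named after its values were seen. Alternatives were a minimum of 3000 UMIs, a mitochondrial maximum of 10%, thinning to 5000 UMIs, a 5-fold margin between marker sums, other tissue markers, no doublets and a mean over cells. Leaving out red cell-rich cells or the richest cell of a gene, the split into bud and epidermal cells, the comparison of E13.5 with E15.5 and 11 of the splits by a UMI of a member were added after seeing the data.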

Additional observations from a re-analysis of the deposited data

Results flagged for a closer look

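Esr1 had opposite tissues at 2 stages, with a log2 ratio of epithelium over mesenchyme of 1.26 at E13.5 and -2.03 at E15.5. Cited1 also changed direction, at -2.93 at E13.5, 1.18 at E15.5 and 2.54 at P0. The E13.5 value of Cited1 rests on 3 epithelial UMIs and the E15.5 value on 1 epithelial cell that held 39 of 76 UMIs. With 1 library per stage the differences between stages were not tested.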

How the results depend on the processing

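No paired analysis was possible because each stage has 1 library and the labels give no replicate numbers, and for the same reason none was left out. Of 266 log2 ratios between tissues over all alternatives, 250 kept their call or lack of one, 10 lost the call and 6 gained it. Of the ratios with a call in the main analysis, 0 changed direction. Direction was not compared for ratios without a call there. P0 is limited by shallow cells and E14.5 by its 76 kept cells. For every other change given here the cause was not tested.

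Thinning every cell to 5000 UMIs removes most UMIs of the deep stages. It ended the calls of Ghr at E14.5 (-1.71) and P0 (-0.81) and of Prlr at P0 (0.80), all log2 ratios of epithelium over mesenchyme, and of Esr1 at E13.5 (1.36) and Cited1 at E15.5 (1.55). Members called higher in mesenchyme became 1 at E14.5 and 1 at P0. In epithelium, members higher at E15.5 than at E13.5 became 0 and lower 1, and members higher at P0 than at E15.5 became 5 and lower 1. Co-detection became 42.3% for Prlr in cells with Cited1, 18.2% for Prlr and 18.2% for Cited1 in cells with Esr1 at P0, 26.1% for Esr1 in E14.5 cells with Pthlh, 27.8% for Esr1 in E15.5 mesenchymal cells with Pgr and 4.76% for Nr3c1 in E13.5 cells with Pthlh. Among P0 cells with Prlr and with Cited1, basal genes lower became 3 and 3 and proliferation genes higher 2 and 2. Proliferation genes lower with Pthlh at P0 became 0, those higher with Esr1 in E15.5 mesenchyme 0, dermal genes lower with Esr1 at E15.5 1, and epidermal genes lower with Pthlh 2 at E14.5 and 5 at E15.5.

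As a mean over cells, called by the 2-fold ratio alone, Cited1 at E15.5 (0.98), Prlr at P0 (0.90) and Ghr at P0 (-0.91) lost the call, members higher in mesenchyme at P0 became 1, and in epithelium members at E15.5 became 3 higher and 1 lower than at E13.5. A mitochondrial maximum of 10% ended the E15.5 call of Cited1 (0.95), gave Vdr a call at E15.5 (1.00) and made 1 member lower in epithelium at E15.5 than at E13.5. Vdr at E15.5 was also called with a 5-fold margin (1.15), with other tissue markers (1.17), without Scrublet doublets (1.30) and without the richest cell (1.23). Without Scrublet doublets Esr1 gained a call at E14.5 (2.25), members higher in epithelium at E14.5 became 2 and epidermal genes lower with Pthlh at E14.5 became 1. Without the richest cell, Cited1 at E15.5 lost its call (0.32) and members higher in epithelium at E15.5 than at E13.5 became 0.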

Other observations

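The genes whose levels ran most like each member were ranked by Pearson's r of log2(CPM + 10) over the 8 groups of stage and tissue, among 8803 genes, as a description over groups that share libraries. Lgr6 was nearest to Pthlh (r = 0.980) and Arhgef25 to Pth1r (0.994), for which 127 genes reached 0.95. Prlr was nearest to Wfdc18 (0.996), Lcn2 (0.994) and Cp (0.992), although within P0 epithelium Wfdc18 was lower in the cells with Prlr, at 871 against 4953 CPM. Cd14 was nearest to Cited1 (0.982), Lix1l to Ghr (0.985) and Tnk1 to Vdr (0.981). Esr1, Pgr and Nr3c1 had no gene at 0.95, with Npr3 (0.896), Ssr4 (0.946) and Derl1 (0.878) nearest. Among the members, Cited1 and Prlr were nearest to each other (0.943).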
